A study of Mus musculus with 18 samples.

Results

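The liver bud of the mouse embryo was compared between 11.5 and 10.5 days post conception (dpc), the first day of outgrowth covered by a developmental series of 18 Affymetrix arrays. The comparison rested on 4 of these arrays, 2 of liver at 11.5 dpc and 2 of liver at 10.5 dpc, chosen by the stage in their source names and titles. The age field of the 11.5 dpc and later liver samples gives 10.5 dpc instead and was not followed. All embryos were of CD-1 mice, an outbred strain, with no genetic alteration given in the labels. Each liver sample pooled at least 5 embryos, whose livers were microdissected with surrounding tissue removed, so an array stands for a pool and not for an animal. The 10 other liver arrays (12.5 to 16.5 dpc and 10-week-old adult females) entered the fit to estimate the spread. The adult samples are labelled as normal baseline liver, but their treatment text describes anaesthesia with ketamine and xylazine and partial hepatectomy, and does not say how it applies to them. The embryo without its liver, here called the rest of the embryo, gave 1 array at 11.5 dpc and 1 at 10.5 dpc. Values are probe set intensities on a linear scale, and differences are on the log2 scale, 11.5 minus 10.5 dpc. Intensities under 24.8 were set to 24.8 before the logarithm. A gene was called when limma gave a Benjamini-Hochberg adjusted p under 0.05 and the difference was at least 1 log2.

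The liver bud forms as hepatoblasts, the common progenitors of hepatocytes and bile duct cells, leave the foregut endoderm and grow as cords into the septum transversum, the mesenchyme next to the developing heart. Blood progenitors then settle between the cords, and the fetal liver becomes the main site of red cell formation. Hepatoblasts begin in the same period to make plasma proteins, most of which remain hepatocyte products for life. Because the bud lies directly under the heart, transcripts of heart muscle are reported apart from those of the liver.

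The 2 arrays of 10.5 dpc stood further apart than the 2 of 11.5 dpc. The ratio of the 3' to the 5' Gapdh control, which is high where transcripts have lost their 5' ends, was 0.796 and 0.744 on the 11.5 dpc arrays, against 2.82 on replicate 1 and 0.803 on replicate 2 of 10.5 dpc. Over 14125 genes, 266 differed by at least 1 log2 between the replicates of 11.5 dpc and 1161 between those of 10.5 dpc. Replicate 2 of 10.5 dpc correlated with the 11.5 dpc arrays at Pearson r = 0.954 and r = 0.961 across 45037 probe sets, and with its own replicate 1 at r = 0.948. Values are therefore given for each 10.5 dpc array, and counts also with either of them left out. In such a fit the remaining 10.5 dpc array is assumed to vary as the other groups do. Alb and alpha-fetoprotein (Afp), the serum proteins that define the hepatic lineage, were well above the floor on all 4 arrays.

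Of 14125 genes tested, 419 were called higher at 11.5 dpc (2.97%) and 380 lower (2.69%), together 799 (5.66%), and 3977 had an unadjusted p under 0.05. The median size of the called differences was 1.39 log2 for the higher and 1.35 log2 for the lower genes. The 2 arrays of each stage did not overlap for any called gene, which was also true of 53.1% of all genes tested. Without replicate 1 of 10.5 dpc 334 genes were called higher (2.36%) and 268 lower (1.90%), together 4.26%. Without replicate 2, which leaves the array with the high Gapdh ratio as the only one of its stage, 774 were called higher (5.48%) and 1012 lower (7.16%), together 12.6%. Without replicate 1 of 11.5 dpc 318 were called higher and 238 lower, and without replicate 2 of 11.5 dpc 399 were called higher and 450 lower. Genes outside the naming rule, picked after their values had been seen, are marked as chosen by value. In all 3 fits together 278 genes were called higher (1.97%) and 231 lower (1.64%). The 509 genes called in all 3 are described below as held, and a call that was lost in a fit without replicate 1 or without replicate 2 is described as not held, which does not test the 11.5 dpc arrays. Of the lower genes, 67 exceeded the intensity filter on the 10.5 dpc arrays alone, as did 1 higher gene on the 11.5 dpc arrays alone. Such genes entered the test only through the stage where they were high. List counts below include some of them, Lin28a and Ryr2 among them. In counts of list members below, rose and fell stand for called higher and called lower. Members that were not called can still differ in either direction. Such counts are to be read beside the shares of all genes tested, 2.97% higher and 2.69% lower.

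**Figure D1:**
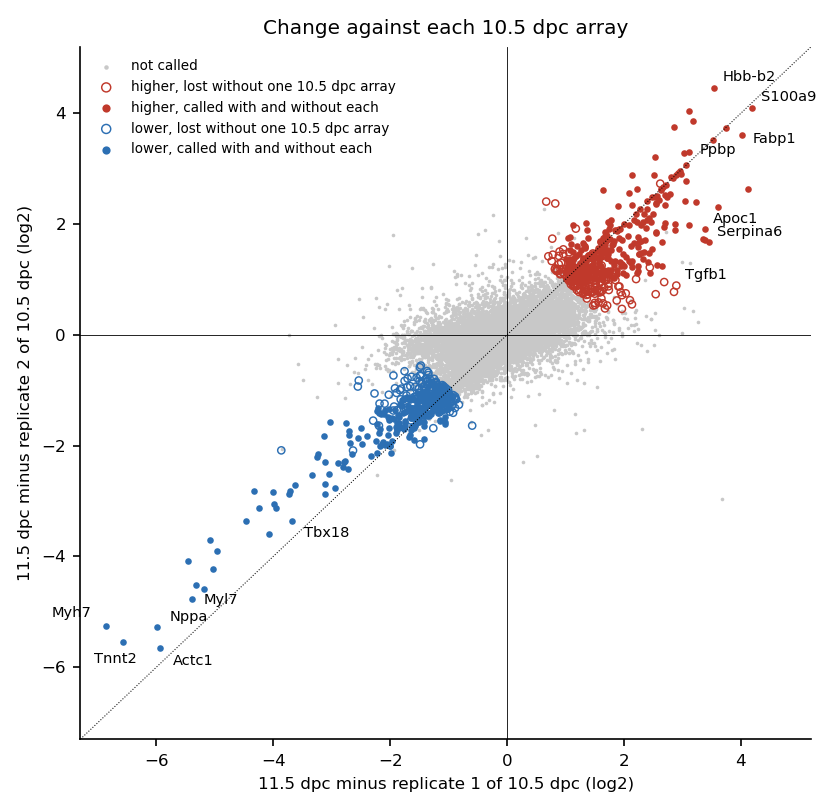
Difference of the mean of the 2 liver arrays of 11.5 dpc from replicate 1 (horizontal axis) and from replicate 2 (vertical axis) of 10.5 dpc, in log2, for 14125 genes. Filled points are the 509 genes called in all 3 fits and open points are calls lost in a fit without replicate 1 or 2. Heart muscle genes lie above the dotted line of equality, with larger falls against replicate 1, and Serpina6 and Apoc1 lie below it, with larger rises against replicate 1.

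The 6 largest rises were those of S100a9, Hbb-b2, Fabp1, S100a8, Prrg1 and Zfp184. S100a9, a subunit of the calcium-binding protein calprotectin of neutrophils, read 524 and 397 at 11.5 dpc, against 14.1 and 26.5 at 10.5 dpc, a difference of 4.15 log2 (SE 0.14, adjusted p = 1.58e-07). Its partner S100a8 read 395 and 280 at 11.5 dpc, against 10.6 and 16.5 at 10.5 dpc, both under the floor, and was at least 13.4-fold higher. Hbb-b2, an adult beta globin, read 725 and 415 at 11.5 dpc, against 47.0 and 11.2 at 10.5 dpc, a difference of 4.0 log2 (SE 0.35, adjusted p = 6.78e-05). The beta globin genes are near-identical copies, and another Hbb-b2 probe set differed by 1.0 log2, so the size of this rise is uncertain. Fabp1, the fatty acid binding protein of liver, read 599 and 518 at 11.5 dpc, against 34.1 and 45.5 at 10.5 dpc (3.82 log2, SE 0.25, adjusted p = 1.24e-05). Prrg1, a membrane protein with a Gla domain, rose by 3.58 log2, and the zinc finger gene Zfp184 was at least 11.5-fold higher. Another probe set of Prrg1 read -0.07 log2. All 6 rises were held. That the arrays of the stages did not overlap was a condition of choosing these 6 genes. For S100a8 and Zfp184 both 10.5 dpc arrays lay at the floor. Leaving out either array could not change the size of their rise, as for any gene with both 10.5 dpc arrays at the floor. Of S100a9, Hbb-b2 and Prrg1, 1 of the 2 arrays of 10.5 dpc lay at the floor, which shrinks the difference. The same held, for 1 array of the lower stage, of C1s1, F12, Otc, Steap3, Prg2, Cldn13, Apoa4, Lef1, Cyp26a1 and Sox2. Where arrays lie at the floor they add no spread, and the SE is too small.

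Secreted plasma proteins formed the broadest hepatic change. Of 77 tested genes in 5 lists of plasma proteins (carriers, apolipoproteins, coagulation, complement and protease inhibitors) 39 were called higher and 1 lower, with a median difference of 1.04 log2, against 2.97% higher, 2.69% lower and a median of 0 over all genes tested. Of the 40 calls 30 were held. The 10.5 dpc arrays were unequal here: for 30 of the 40 called genes replicate 1 read below replicate 2, and for 5 above it. In bulk tissue a change in the number of cells of a type and a change in RNA per cell cannot be told apart, and this holds for each cell type below.

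Among carriers 4 of 13 genes rose and none fell. Alb, the main carrier protein of plasma, read 6433 and 6058 at 11.5 dpc, against 956 and 1541 at 10.5 dpc, a difference of 2.36 log2 (SE 0.19, adjusted p = 4.87e-05). The difference was 2.02 log2 against replicate 2 alone and 2.71 log2 against replicate 1 alone. Ahsg, which encodes the serum glycoprotein fetuin A, read 233 and 186 at 11.5 dpc, against 5.84 and 3.34 at 10.5 dpc, and was at least 8.38-fold higher. Ambp, the precursor of alpha-1-microglobulin and bikunin, read 2470 and 2350 at 11.5 dpc, against 585 and 1135 at 10.5 dpc (1.56 log2, SE 0.29, adjusted p = 0.00521). The remaining carrier was hemopexin (Hpx), which binds free heme, at 1.35 log2, chosen by value. These 4 calls were held, although Alb and Ambp started from unequal 10.5 dpc readings.

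Of 12 apolipoprotein and lipoprotein assembly genes 7 rose and 1 fell. Apoh, a phospholipid-binding plasma protein, read 233 and 161 at 11.5 dpc, against -11.9 and 21.2 at 10.5 dpc, at least 7.81-fold higher. Another Apoh probe set was at 0 log2. A difference of exactly 0 log2 is what arrays at the floor in both stages give, so it shows no direction. Apoc1, a small exchangeable apolipoprotein, read 347 and 354 at 11.5 dpc, against 33.4 and 92.8 at 10.5 dpc (2.65 log2, SE 0.43, adjusted p = 0.00245). Its rise was 3.39 log2 against replicate 1 of 10.5 dpc and 1.92 log2 against replicate 2. Apoe, Apoc2, Apoa2, Apoa1 and Apom rose by 1.04 to 1.82 log2, chosen by value, and the calls of Apoe, Apoa1 and Apom were not held. Apoa4, a lipoprotein of intestine and liver, moved the other way, with 54.8 and 4.61 at 11.5 dpc, against 325 and 130 at 10.5 dpc (-2.48 log2, SE 0.44, adjusted p = 0.00456).

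The coagulation list had the highest median of the 5, at 1.42 log2, with 14 of 21 genes higher and none lower. Kng1, the kininogen that carries bradykinin, read 284 and 229 at 11.5 dpc, against 38 and 45.4 at 10.5 dpc (2.62 log2, SE 0.30, adjusted p = 0.000397). F12, the contact factor XII, read 143 on both 11.5 dpc arrays, against 3.26 and 25.5 at 10.5 dpc (2.51 log2, SE 0.12, adjusted p = 3e-06), the lower of these under the floor. F5, the cofactor of factor X, read 146 and 132 at 11.5 dpc, against -31.4 and 16.8 at 10.5 dpc, and was at least 5.59-fold higher. Another F5 probe set was at 0 log2, the value that arrays at the floor give. Prothrombin (F2) rose by 1.55 log2, and the 3 chains of fibrinogen by 1.43 (Fgb), 1.08 (Fga) and 1.06 log2 (Fgg), chosen by value. The calls of Fga and Fgg were not held. Without replicate 1 of 10.5 dpc the list had 11 genes called higher and without replicate 2 it had 14.

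Of 14 serpins and other protease inhibitors 8 rose and none fell. Serpina6, the corticosteroid-binding globulin, read 4132 and 3637 at 11.5 dpc, against 352 on replicate 1 and 1208 on replicate 2 of 10.5 dpc (2.57 log2, SE 0.47, adjusted p = 0.00499). The size of its rise depended on the array it was set against, 3.46 log2 on replicate 1 and 1.68 log2 on replicate 2. Itih3, a heavy chain of the inter-alpha-trypsin inhibitor, rose by 2.97 log2 and Serpina1b, an alpha-1-antitrypsin, by 2.55 log2. The alpha-1-antitrypsin genes are close copies, so the signal of Serpina1b cannot be assigned to it alone. Complement genes had a median of 0.42 log2, and 6 of 17 rose while none was lower. Cfb, the factor B of the alternative pathway, read 180 and 137 at 11.5 dpc, against 34.6 and 37.2 at 10.5 dpc (2.13 log2, SE 0.21, adjusted p = 0.000131). The protease C1s1 rose by 1.73 log2 and factor I (Cfi) by 1.55 log2, a call not held.

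The promoters of Alb and Fabp1 are shown because both genes rose and both carry the hexamer GTTAAT, a core of the element bound by the hepatocyte nuclear factor HNF1. The hexamer, in capitals, starts 32 bases before the Alb start and 107 bases before the Fabp1 start. The runs hold the 250 bases before the start, 5′ to 3′ on the coding strand, from RefSeq on GRCm38.p6.
Alb, chr5:90460620-90460869, plus strand: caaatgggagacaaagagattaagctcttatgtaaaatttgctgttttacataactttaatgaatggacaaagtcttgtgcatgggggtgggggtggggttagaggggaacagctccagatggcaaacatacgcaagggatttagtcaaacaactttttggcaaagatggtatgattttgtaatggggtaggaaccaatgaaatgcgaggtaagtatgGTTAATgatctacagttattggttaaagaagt
Fabp1, chr6:71199629-71199878, plus strand: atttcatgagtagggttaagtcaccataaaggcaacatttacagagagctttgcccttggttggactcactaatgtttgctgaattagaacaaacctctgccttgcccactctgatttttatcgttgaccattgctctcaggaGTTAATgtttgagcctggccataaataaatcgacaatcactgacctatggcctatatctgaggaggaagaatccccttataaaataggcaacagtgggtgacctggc
Over windows reaching 250 bases before to 50 bases after the start, GTTAAT on either strand occurred in 7.10% of 32851 windows and, counting a gene if any of its windows held it, in 8.24% of 27025 genes. Of 31 plasma protein genes called higher that had a window, 12 held it (38.7%). The same hexamer was present in 5 of 21 heart muscle genes called lower (23.8%) and in 0 of 25 erythroid genes called higher. These are matches of letters, not measured binding.

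Transcription factors and epithelial genes of the bud had 2 calls in each list. Over all genes tested 2.97% were called higher and 2.69% lower. Of 20 hepatoblast transcription factors 1 rose and 1 fell, with a median of -0.0021 log2. Hnf4a, a nuclear receptor that activates many hepatocyte genes, read 400 and 438 at 11.5 dpc, against 162 and 265 at 10.5 dpc (1.01 log2, SE 0.26, adjusted p = 0.0261). Its call was not held, with 0.66 log2 against replicate 2 of 10.5 dpc alone. Nr2f1, an orphan nuclear receptor also present in mesenchyme and neural tissue, read 150 and 200 at 11.5 dpc, against 684 and 762 at 10.5 dpc (-2.06 log2, SE 0.43, adjusted p = 0.0102). Hhex and Prox1, homeobox genes needed for the bud to grow out, and Tbx3, a transcriptional repressor of the T-box family, did not pass the test. Hhex differed by 0.52 log2 (231 and 273 at 11.5 dpc, against 137 and 222 at 10.5 dpc), Prox1 by 0.02 log2 and Tbx3 by -0.46 log2. The sign of the Prox1 difference turned with the 10.5 dpc array, -0.27 log2 against replicate 2 and 0.30 log2 against replicate 1.

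Of 17 genes of hepatoblasts, oncofetal programmes and bud epithelium none was called higher and 2 were called lower, with a median of -0.50 log2. Hmga2, an architectural chromatin protein of embryonic cells, read 1808 and 1909 at 11.5 dpc, against 4392 and 4581 at 10.5 dpc (-1.27 log2, SE 0.15, adjusted p = 0.000496). Lin28a, an RNA-binding protein that blocks let-7 maturation, read 51.6 and 69.5 at 11.5 dpc, against 111 and 150 at 10.5 dpc (-1.10 log2, SE 0.22, adjusted p = 0.00734), a call not held. Lin28a exceeded the intensity filter on the 10.5 dpc arrays alone. Afp read 5496 and 6108 at 11.5 dpc, against 4525 and 4914 at 10.5 dpc, a difference of 0.30 log2 that did not pass the test (adjusted p = 0.0989). The 2 serum proteins of the hepatoblast thus differed in size of change, with Alb at 2.36 log2 beside Afp, but the difference between these changes was not tested.

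Calls among metabolic genes of the mature hepatocyte are given by list, beside 2.97% called higher and 2.69% called lower over all genes tested. Of 17 urea cycle and amino acid genes Otc, ornithine transcarbamylase, rose by 1.96 log2 (116 and 121 at 11.5 dpc, against 18 and 37.2 at 10.5 dpc) and Glud1, glutamate dehydrogenase, by 1.22 log2. The call of Glud1 was not held. Pklr, the pyruvate kinase of liver and red cells, rose by 1.21 log2 (SE 0.15, adjusted p = 0.000545). No gene of 16 in cholesterol synthesis was called, the nearest being Nsdhl at 0.71 log2. Of 25 cytochrome P450 genes 1 was called, Cyp26a1, which degrades retinoic acid, at -1.74 log2, and that call was not held.

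**Figure D2:**
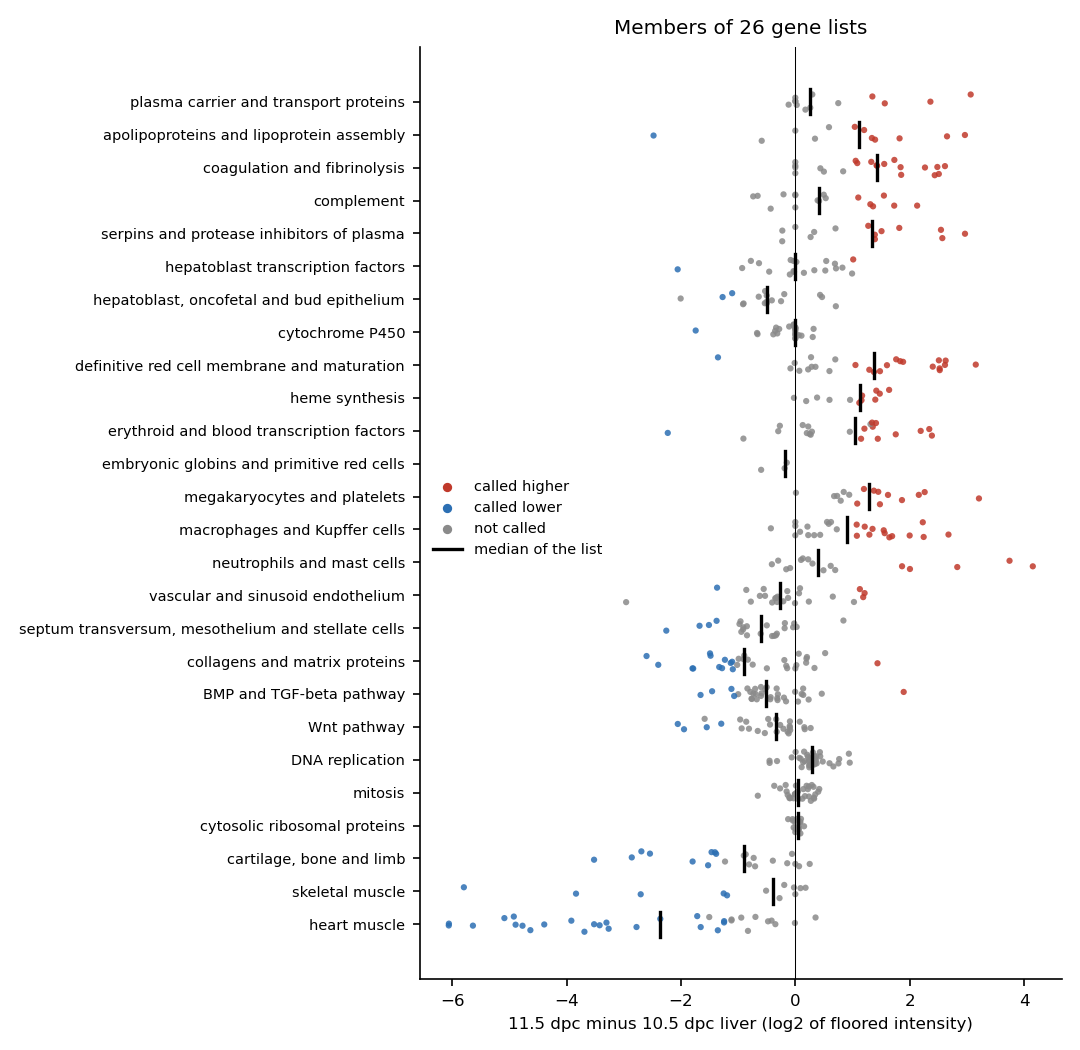
Difference between liver at 11.5 and at 10.5 dpc, in log2, for every tested member of 26 gene lists, 1 point per gene and 1 bar at the median of each list. Plasma protein, red cell, platelet and macrophage lists lie to the right of 0, matrix and cartilage lists to the left, and 22 of 33 heart muscle genes were called lower.

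Genes of definitive red cells rose together with the enzymes of heme synthesis and the transcription factors of the lineage. Of 59 tested genes in these 3 lists 32 rose and 2 fell, with a median of 1.16 log2, and 30 of the 34 calls were held. Over all genes tested 2.97% were called higher and 2.69% lower. At 10.5 dpc replicate 1 read above replicate 2 for 15 called genes and below it for 19, but the 3 lists differed. It read above for 8 and below for 8 called red cell membrane and maturation genes. For heme synthesis it read above for 5 and below for 2, and for the transcription factors above for 2 and below for 9. Icam4, an adhesion molecule of erythroblasts that binds macrophages, read 820 and 626 at 11.5 dpc, against 87.7 and 73.6 at 10.5 dpc (3.16 log2, SE 0.14, adjusted p = 1.81e-06). The red cell membrane protein Ermap rose by 2.63 log2 (1641 and 1372 at 11.5 dpc, against 240 and 245 at 10.5 dpc) and Rhag, part of the Rh complex, by 2.62 log2 (875 and 731 at 11.5 dpc, against 122 and 139 at 10.5 dpc). For these 3 genes both arrays of 11.5 dpc lay far above both of 10.5 dpc, and the 10.5 dpc arrays were close to each other. Band 3 (Slc4a1), the anion exchanger of the red cell, rose by 1.37 log2, and Tmod1, a cap of short actin filaments in red cells and muscle, was the member that fell, at -1.35 log2 in a call not held. Both were chosen by value.

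Of 12 heme synthesis genes 7 rose and none fell. Cpox, coproporphyrinogen oxidase, read 2644 and 2464 at 11.5 dpc, against 807 and 831 at 10.5 dpc (1.64 log2, SE 0.11, adjusted p = 1.31e-05). Ppox, the next enzyme of the pathway, rose by 1.48 log2 and Uros, uroporphyrinogen III synthase, by 1.42 log2, but another Ppox probe set read -0.29 log2. Of 18 iron handling genes 5 rose and 1 fell, with a median of 0.21 log2. Tfrc, the transferrin receptor, read 3260 and 2706 at 11.5 dpc, against 833 and 918 at 10.5 dpc (1.76 log2, SE 0.20, adjusted p = 0.000449), and its other probe sets rose by 2.97 to 3.73 log2. The other rising members were the endosomal ferrireductase Steap3 at 1.73, the iron exporter Slc40a1 at 1.64, Tfr2 at 1.62 and Slc39a8 at 1.0 log2. The ferroxidase Heph fell by 1.46 log2. Tfr2, Slc39a8 and Heph were chosen by value, and the call of Slc39a8 was not held.

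Of 22 erythroid and blood transcription factors 10 rose and 1 fell, with a median of 1.05 log2. Gfi1b, a repressor needed for red cells and megakaryocytes, read 489 and 412 at 11.5 dpc, against 60.9 and 121 at 10.5 dpc (2.39 log2, SE 0.25, adjusted p = 0.000216). Ikzf1, the founding Ikaros factor of blood cells, read 922 and 887 at 11.5 dpc, against 159 and 199 at 10.5 dpc (2.34 log2, SE 0.13, adjusted p = 3.32e-06). Klf1, the main activator of erythroid genes, rose by 2.19 log2, Tal1 by 1.76 log2 and Gata1 by 1.44 log2, chosen by value. Mecom, a regulator of blood stem cells also expressed outside blood, fell by 2.23 log2 (52.5 and 97.2 at 11.5 dpc, against 399 and 282 at 10.5 dpc), while another of its probe sets read -0.12 log2. Of 14 cytokine receptor and progenitor genes 2 rose. The erythropoietin receptor Epor read 718 and 513 at 11.5 dpc, against 124 and 154 at 10.5 dpc (2.13 log2, SE 0.19, adjusted p = 9.21e-05), and the leukocyte antigen Ptprc was at least 3.25-fold higher, with another probe set at 0 log2.

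Embryonic globins of primitive red cells did not pass the test. Of the 3 tested, Hbb-bh1 had the smallest adjusted p, with 3898 and 3946 at 11.5 dpc, against 6206 and 5677 at 10.5 dpc (-0.60 log2, SE 0.37, adjusted p = 0.319). Hbb-y and Hba-x, also expressed in primitive red cells, differed by -0.19 and -0.15 log2. Of the adult globins Hba-a1 differed by -0.62 log2 and was not called.

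The promoters of Icam4 and Epor are shown as rising erythroid genes with the hexamer TTATCT, the reverse complement of AGATAA, the core bound by GATA factors. In capitals, it starts 43 bases before the Icam4 start and 54 bases before the Epor start, in the 250 bases before the start on the coding strand (RefSeq, GRCm38.p6).
Icam4, chr9:21029182-21029431, plus strand: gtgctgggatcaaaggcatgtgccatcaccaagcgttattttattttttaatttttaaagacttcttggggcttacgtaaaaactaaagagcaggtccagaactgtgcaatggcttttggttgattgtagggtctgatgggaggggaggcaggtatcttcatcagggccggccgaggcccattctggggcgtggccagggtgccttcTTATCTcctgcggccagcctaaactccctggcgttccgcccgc
Epor, chr9:21963577-21963826, minus strand: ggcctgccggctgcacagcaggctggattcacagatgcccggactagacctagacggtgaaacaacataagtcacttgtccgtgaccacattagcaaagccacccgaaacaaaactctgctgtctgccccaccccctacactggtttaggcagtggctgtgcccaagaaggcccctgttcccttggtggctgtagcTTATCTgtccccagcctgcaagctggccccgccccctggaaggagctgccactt
AGATAA on either strand occurred in 11.2% of windows and 12.7% of genes. Of 25 red cell, heme and blood transcription factor genes called higher that had a window, 8 held it (32%), compared with 3 of 31 plasma protein genes (9.68%). Of 21 heart muscle genes called lower 7 held it (33.3%).

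Other blood lineages rose as well. Among 16 megakaryocyte and platelet genes 10 rose, with none lower and a median of 1.29 log2. Ppbp, a chemokine precursor stored in platelets, read 1598 and 1706 at 11.5 dpc, against 190 and 167 at 10.5 dpc (3.21 log2, SE 0.11, adjusted p = 1.58e-07). Tubb1, the beta tubulin of the platelet ring, rose by 2.26 log2 (618 and 697 at 11.5 dpc, against 129 and 144 at 10.5 dpc) and Gp1bb, part of the von Willebrand factor receptor, by 2.16 log2 (333 and 377 at 11.5 dpc, against 68.1 and 92.3 at 10.5 dpc). Another Gp1bb probe set read 0.09 log2. The arrays of each stage lay close together for these genes, and 9 of the 10 calls were held.

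Macrophage and Kupffer cell genes were called higher in 13 of 26 cases and lower in none, and their median was 0.90 log2. C1qa, a chain of the complement starter C1q made by macrophages, read 162 and 156 at 11.5 dpc, against -96.4 and -52.8 at 10.5 dpc, and was at least 6.40-fold higher. The other 2 chains, C1qc and C1qb, rose by 1.55 and 1.35 log2, chosen by value. Lyz1, a lysozyme with a near copy in the genome, rose by 2.24 log2 and the lysosomal protease Ctss by 2.23 log2. Cd5l and Timd4, a secreted protein and a phosphatidylserine receptor of tissue macrophages, were at least 4.0-fold and at least 2.95-fold higher, chosen by value. Of 16 neutrophil and mast cell genes 5 rose and none fell. Beside S100a9 and S100a8 these were the eosinophil granule protein Prg2 at 2.83 log2 and, chosen by value, the neutrophil granule proteins Prtn3 at 2.00 and Mpo at 1.87 log2. All 5 were held.

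**Figure D3:**
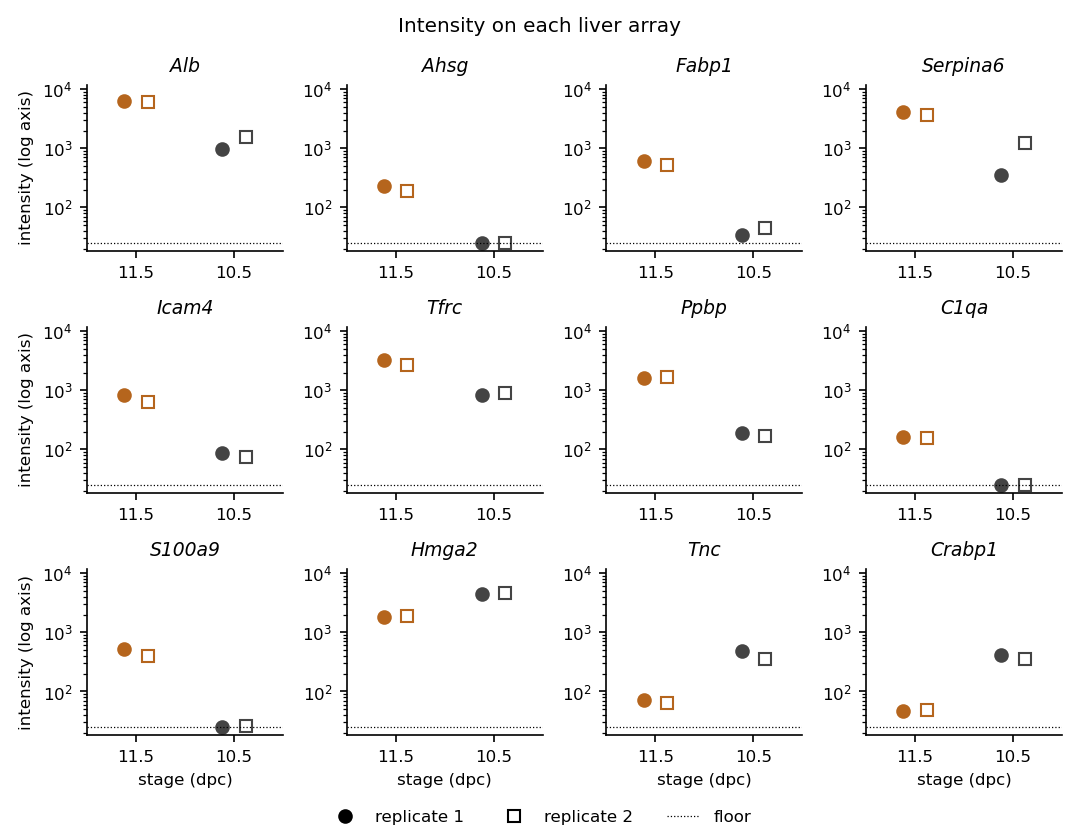
Intensity of 12 genes on each liver array, on a log axis, with the 2 arrays of 11.5 dpc at the left and the 2 of 10.5 dpc at the right of each panel. Filled circles are replicate 1, open squares replicate 2, and the dotted line is the floor of 24.8, at which lower readings are drawn. For Serpina6 and Alb the 10.5 dpc arrays differ visibly, and for Icam4, Tfrc, Ppbp and Hmga2 they nearly coincide.

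Of 24 endothelial genes 3 rose and 1 fell, with a median of -0.26 log2. The rising members were markers of liver sinusoids: Ehd3, an endocytic protein, at 1.21 log2 (577 and 598 at 11.5 dpc, against 190 and 339 at 10.5 dpc), the hyaluronan receptor Lyve1 at 1.19 log2 (221 and 246 at 11.5 dpc, against 89.9 and 117 at 10.5 dpc) and the scavenger receptor Stab2 at 1.13 log2. The call of Stab2, chosen by value, was held, and those of Ehd3 and Lyve1 were not, with 0.79 log2 for Ehd3 and 0.998 log2 for Lyve1 against replicate 2 of 10.5 dpc. Emcn, a sialomucin of veins and capillaries, fell by 1.37 log2 (57.8 and 73.4 at 11.5 dpc, against 192 and 147 at 10.5 dpc).

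Of 23 genes of septum transversum, mesothelium and stellate cells none was called higher and 4 were called lower, with a median of -0.61 log2. Tagln, an actin-binding protein of smooth muscle and myofibroblasts, read 56.7 and 58.2 at 11.5 dpc, against 287 and 263 at 10.5 dpc (-2.26 log2, SE 0.21, adjusted p = 0.000115). Upk3b, a marker of mesothelium, read 100 and 108 at 11.5 dpc, against 311 and 284 at 10.5 dpc (-1.51 log2, SE 0.18, adjusted p = 0.000445). Acta2, smooth muscle actin, fell by 1.38 log2, chosen by value. Desmin (Des), an intermediate filament of muscle and stellate cells, fell by 1.67 log2 on the probe set used, but its other probe set rose by 2.04 log2, so no direction is given for it. Muscle expresses 3 of these 4 genes, Tagln, Acta2 and Des.

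Of 31 collagens and matrix proteins 12 fell and 1 rose, with a median of -0.89 log2, and 8 of the 13 calls were held. Tnc, the matrix glycoprotein tenascin C, read 71.3 and 64.2 at 11.5 dpc, against 475 and 354 at 10.5 dpc (-2.60 log2, SE 0.24, adjusted p = 9.79e-05). Vcan, the proteoglycan versican, read 105 and 123 at 11.5 dpc, against 708 and 502 at 10.5 dpc (-2.40 log2, SE 0.34, adjusted p = 0.0013), with its 3 other probe sets between -2.45 and 0.06 log2. Col4a1, a chain of basement membrane collagen, read 469 and 275 at 11.5 dpc, against 1608 and 970 at 10.5 dpc (-1.80 log2, SE 0.27, adjusted p = 0.00186). For all 3 genes replicate 1 of 10.5 dpc was the higher one, as it was for 12 of the 13 called genes of the list. Heart muscle transcripts showed the same order of the 10.5 dpc arrays, with list sums of 2768 and 2752 at 11.5 dpc, against 29256 on replicate 1 and 15864 on replicate 2 of 10.5 dpc, and their part in the matrix result was not tested. Vitronectin (Vtn), which the liver secretes into plasma, was the member that rose, by 1.44 log2, chosen by value, in a call not held.

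Signalling genes with calls were mostly lower, beside 2.97% called higher and 2.69% called lower over all genes tested. Of 34 genes of the BMP and TGF-beta pathway 4 fell and 1 rose, with a median of -0.51 log2, but only the call of Bambi was held. Bambi, a decoy receptor of the pathway, read 178 and 209 at 11.5 dpc, against 650 and 570 at 10.5 dpc (-1.66 log2, SE 0.22, adjusted p = 0.000843). The ligand Tgfb1 read 504 and 516 at 11.5 dpc, against 68.4 on replicate 1 and 275 on replicate 2 of 10.5 dpc (1.90 log2, SE 0.46, adjusted p = 0.0211). Its rise was 0.89 log2 against replicate 2 and was no longer called, and another Tgfb1 probe set read 0.16 log2. The homeobox target Msx2 (-1.46 log2), the ligand Bmp4 (-1.12 log2) and Id4 (-1.07 log2) were the other lower members, Bmp4 and Id4 chosen by value.

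Of 27 Wnt pathway genes none was called higher and 4 were called lower. The ligand Wnt2 read 61.5 and 31.0 at 11.5 dpc, against 192 and 171 at 10.5 dpc (-2.06 log2, SE 0.32, adjusted p = 0.0022), and the ligand Wnt5a 27.4 and 41.5 at 11.5 dpc, against 132 and 128 at 10.5 dpc (-1.95 log2, SE 0.27, adjusted p = 0.00124). The transcription factor Lef1 fell by 1.55 log2, not held, and the receptor Fzd2 by 1.3 log2, chosen by value. Retinoic acid pathway genes were called lower in 3 of 14 cases, Cyp26a1 among them. Crabp1 and Crabp2, which bind retinoic acid in the cytoplasm, read 46.0 and 48.9 at 11.5 dpc, against 410 and 349 at 10.5 dpc (-3.0 log2, SE 0.25, adjusted p = 4.79e-05), and 75.2 and 79.2 at 11.5 dpc, against 322 and 303 at 10.5 dpc (-2.02 log2, SE 0.19, adjusted p = 0.000131). In both genes the arrays of a stage lay close together, also at 10.5 dpc.

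In the insulin-like growth factor axis 4 of 15 genes fell: the binding proteins Igfbp5 by 1.61 and Igfbp2 by 1.27 log2, the adaptor Irs1 by 1.23 log2 and the clearance receptor Igf2r by 1.16 log2, the last not held. Of 17 Notch pathway genes 3 fell, the target Hey2 by 1.71, the ligand Jag1 by 1.16 and the receptor Notch3 by 1.13 log2, and the call of Notch3 alone was held. Fgfr1, a fibroblast growth factor receptor, was the single call among 18 genes of FGF and HGF signalling (88.2 and 98.4 at 11.5 dpc, against 343 and 280 at 10.5 dpc, -1.73 log2, SE 0.21, adjusted p = 0.000555). Another Fgfr1 probe set read -0.33 log2, and the mean over its probe sets, -0.75 log2, was not called.

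Genes of growth and basic metabolism showed no calls in 4 lists. None of 38 DNA replication genes, 31 mitosis genes, 28 oxidative phosphorylation genes and 18 cytosolic ribosomal protein genes was called, with medians of 0.28, 0.05, -0.01 and 0.04 log2. At the share over all genes tested, 5.66% called either way, lists of this size would hold few calls. Of the replication genes 34 of 38 had a positive difference, beside 6896 of 14125 over all genes tested. Without replicate 2 of 10.5 dpc the median of the replication genes was 0.30 log2, and without replicate 1 it was 0.28 log2. In the difference between liver and the rest of the embryo, described further on, 4 replication genes and 2 mitosis genes were called higher. The replication licensing factor Cdc6 came nearest, with 648 and 540 at 11.5 dpc, against 288 and 325 at 10.5 dpc, a difference of 0.95 log2 that passed the p threshold (adjusted p = 0.0013) but not that of 1 log2. Of 17 cell cycle regulators Rb1, the retinoblastoma protein, rose by 1.71 log2 and E2f2 by 1.08 log2, and the cyclin Ccnd2 fell by 1.45 log2 (435 and 636 at 11.5 dpc, against 1419 and 1457 at 10.5 dpc). The call of E2f2 was not held. Beta actin (Actb) differed by -0.41 log2 and was not called.

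Of 21 genes of hypoxia and glycolysis the kinase Pdk1, which restrains pyruvate oxidation, rose by 1.34 log2, and the glucose transporter Slc2a1 and the collagen hydroxylase P4ha2 each fell by 1.02 log2, neither held. Of 36 secretory pathway genes the signal peptidase subunit Sec11c rose by 1.36 log2 and the stress transcription factor Creb3l2 fell by 1.26 log2. Their other probe sets read 0.51 log2 (Sec11c) and -0.07 log2 (Creb3l2), and neither was called on the mean over its probe sets (0.94 and -0.67 log2). Gpx3, a secreted glutathione peroxidase, fell by 1.84 log2 (263 and 237 at 11.5 dpc, against 935 and 852 at 10.5 dpc), the only call of 16 metallothionein and antioxidant genes. Gadd45a, a growth arrest gene, was the 1 call of 16 immediate early and stress genes, at 1.07 log2 and not held. Of 14 imprinted growth genes Ndn fell by 1.43, Nnat by 1.23 and Igf2r by 1.16 log2, while the 6 other Ndn probe sets ranged between -1.51 and 0.82 log2. Of 16 matrix proteases and inhibitors none was called, with Adamts1 at -0.90 log2.

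In several lists named for other tissues genes were called lower at 11.5 dpc, beside 2.69% of all genes tested. Where in the samples these transcripts came from was not tested. Of 21 cartilage, bone and limb genes none was called higher and 9 were called lower, with a median of -0.90 log2, and 8 of these calls were held. Tbx18, a T-box factor of mesenchyme, epicardium and somites, read 17.5 and 28.2 at 11.5 dpc, against 340 and 270 at 10.5 dpc (-3.52 log2, SE 0.19, adjusted p = 3.32e-06). Hapln1, a link protein of the hyaluronan matrix, fell by 2.86 log2 and Twist1, a transcription factor of mesenchyme, by 2.69 log2. Of each of these 3 genes 1 array of 11.5 dpc lay at the floor. Of 20 Hox genes 3 fell, Hoxb6 by 1.34, Hoxa4 by 1.26 and Hoxb2 by 1.18 log2, and only Hoxb6 was held.

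Of 19 neural genes 3 fell, the neurofilament Nefm by 1.65, the imprinted proteolipid Nnat by 1.23 and the stem cell factor Sox2 by 1.16 log2, the last not held. Sox9, a factor of cartilage and of foregut progenitors, was the 1 call of 17 gut and pancreas genes (34.9 and 33.4 at 11.5 dpc, against 93.8 and 84.9 at 10.5 dpc, -1.38 log2, SE 0.19, adjusted p = 0.000964). Irx3 fell by 2.09 log2 among 8 lung and kidney genes. Among 12 surface epithelium genes the splicing regulator Esrp1 fell by 1.79 and desmoplakin (Dsp) by 1.15 log2. Summed over their tested members, cartilage, bone and limb genes read 2767 and 2649 at 11.5 dpc, against 5789 on replicate 1 and 4323 on replicate 2 of 10.5 dpc. Neural genes summed to 3461 and 3872 at 11.5 dpc, against 7018 and 5461 at 10.5 dpc. Replicate 1 of 10.5 dpc had the higher sum in each case. Over the neural genes, however, the median of replicate 1 minus replicate 2 of 10.5 dpc was -0.20 log2. Of the 3 called neural genes 1 read higher on replicate 1 and 2 on replicate 2. For cartilage, bone and limb genes that median was 0.22 log2. The part of other tissue in the matrix and signalling results was not tested.

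Heart muscle transcripts fell further than those of any other list examined, by median. Of 33 tested genes none was called higher and 22 were called lower, with a median of -2.36 log2. Over all genes tested 2.69% were called lower. Without replicate 1 of 10.5 dpc 18 fell, without replicate 2 27 fell, and 18 calls were held. The median intensity of the list was 81.1 and 60.1 at 11.5 dpc, against 397 on replicate 1 and 255 on replicate 2 of 10.5 dpc. Replicate 1 read above replicate 2 at 10.5 dpc for 21 of the 22 called genes, with a median difference of 0.80 log2 over the list. The dissection notes in the labels state that tissue beyond the liver was taken off, and the part of heart tissue in the 10.5 dpc samples was not tested.

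Sarcomere genes had the largest falls, those of Myh7 and Tnnt2, but Nppa, at -5.64 log2, fell further than any myosin light chain of the list. Myh7, the beta myosin heavy chain, read 24.2 and -11.5 at 11.5 dpc, against 2894 and 947 at 10.5 dpc, and was at least 66.7-fold lower. Tnnt2, cardiac troponin T, read 17.9 and 18.8 at 11.5 dpc, against 2358 and 1159 at 10.5 dpc, at least 66.6-fold lower. The myosin light chains Myl7, Myl4, Myl2 and Myl3 differed by -5.09, -4.89, -4.77 and -4.39 log2, all called. Myl7, the atrial regulatory chain, read 102 and 97.8 at 11.5 dpc, against 4203 and 2734 at 10.5 dpc (-5.09 log2, SE 0.75, adjusted p = 0.00156). Another Myl4 probe set read -0.97 log2. Of the remaining sarcomere genes the alpha heavy chain Myh6 fell by 4.63, the binding protein Mybpc3 by 3.69, troponin C (Tnnc1) by 3.30, the M-band protein Myom1 by 2.36 and titin (Ttn) by 1.72 log2. Another Ttn probe set read 0.27 log2, and the call of Myom1 was not held. Troponin I (Tnni3), alpha-actinin (Actn2) and nebulette (Nebl) were at or under the floor on both 11.5 dpc arrays and were at least 10.7-fold, 11.5-fold and 9.61-fold lower.

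Heart genes outside the sarcomere also fell. Nppa, the atrial natriuretic peptide, read 7.98 and 1.68 at 11.5 dpc, against 1582 and 965 at 10.5 dpc, and was at least 49.8-fold lower, and the muscle LIM protein Csrp3 was at least 30.3-fold lower. Smpx, a small muscle protein, fell by 3.92 log2, and the calcium release channel Ryr2 was at least 6.85-fold lower. Ryr2 exceeded the intensity filter on the 10.5 dpc arrays alone. The transcription factor Tbx5 fell by 1.36 log2 (110 and 123 at 11.5 dpc, against 258 and 344 at 10.5 dpc), the called heart gene for which replicate 2 read above replicate 1. Tbx20 at -1.65, phospholamban (Pln) at -1.25 and the B-type natriuretic peptide Nppb at -1.24 log2 were called but not held. The 11 genes that were not called ranged between -1.5 and 0.35 log2. They included the transcription factor Nkx2-5, with 93.2 and 116 at 11.5 dpc, against 332 and 153 at 10.5 dpc (-1.12 log2, adjusted p = 0.115), chosen by value.

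Actc1, the cardiac actin that embryonic skeletal muscle shares, read 94.1 and 107 at 11.5 dpc, against 6147 and 5044 at 10.5 dpc (-5.80 log2, SE 0.32, adjusted p = 3.92e-06), and the 2 arrays of each stage were close. It was 1 of 5 lower genes among 12 tested of skeletal muscle, with Tnni1, slow troponin I, at -3.84 and Myl1 at -2.70 log2. Acta1 and Tnnt1, chosen by value, were lower by calls not held. The muscle regulators Myod1, Myog, Myf5 and Pax7 were under the intensity filter. Of 8 smooth muscle genes Cnn1 was at least 5.94-fold lower, Myl9 fell by 1.52 log2 and the kinase Mylk rose by 1.12 log2, not held. With the 3 muscle lists left out, 418 genes were called higher and 351 lower.

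The promoters of Tnnt2 and Myl7 are shown because both genes fell and both carry CATTCC, the M-CAT hexamer bound by TEAD factors in cardiac muscle genes. In capitals, it starts 27 bases before the Tnnt2 start and 70 bases before the Myl7 start (250 bases before the start, coding strand, RefSeq, GRCm38.p6).
Tnnt2, chr1:135836084-135836333, plus strand: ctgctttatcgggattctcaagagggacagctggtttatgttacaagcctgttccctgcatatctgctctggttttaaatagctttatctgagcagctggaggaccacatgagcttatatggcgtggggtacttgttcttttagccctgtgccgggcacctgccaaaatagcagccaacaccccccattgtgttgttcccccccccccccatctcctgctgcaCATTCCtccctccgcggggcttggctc
Myl7, chr11:5898783-5899032, minus strand: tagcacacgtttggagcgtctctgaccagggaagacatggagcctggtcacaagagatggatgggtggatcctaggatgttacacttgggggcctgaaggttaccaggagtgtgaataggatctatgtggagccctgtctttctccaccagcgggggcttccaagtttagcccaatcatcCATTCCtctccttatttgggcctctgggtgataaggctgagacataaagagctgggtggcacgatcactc
CATTCC on either strand occurred in 14.7% of windows and 16.6% of genes. Of 21 heart muscle genes called lower that had a window 9 held it (42.9%), compared with 6 of 31 plasma protein genes (19.4%) and 3 of 25 erythroid genes (12%).

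**Figure D4:**
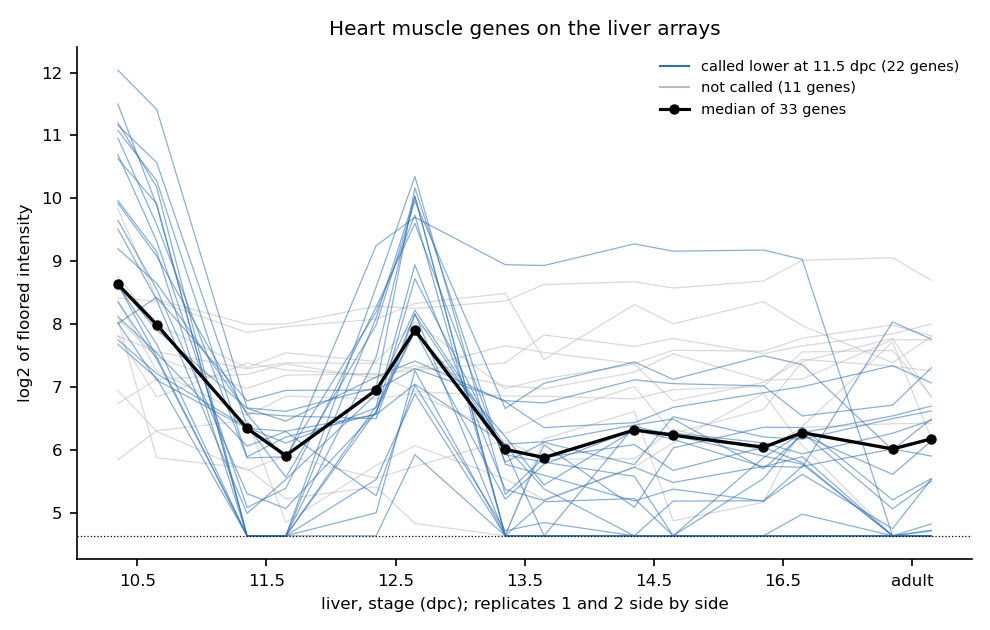
Level of 33 heart muscle genes on the 14 liver arrays, in log2 of floored intensity, 1 thin line per gene and the median in black, with replicates 1 and 2 of a stage side by side. The median was 8.63 and 7.99 at 10.5 dpc and 6.34 and 5.91 at 11.5 dpc, and reached 7.91 again on replicate 2 of 12.5 dpc.

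Heart transcripts were unequal between replicates at 12.5 dpc too. Tnnt2 read 387 on replicate 1 and 1303 on replicate 2 of 12.5 dpc liver, and 39.2 and 58.8 at 13.5 dpc. Troponin C (Tnnc1) took another course, with 493 and 489 at 13.5 dpc and 579 and 523 at 16.5 dpc. On the 10.5 dpc arrays it had read 971 and 542. The median level of the heart list was 8.63 and 7.99 log2 at 10.5 dpc, 6.34 and 5.91 log2 at 11.5 dpc, 6.95 and 7.91 log2 at 12.5 dpc, and 6.01 and 5.88 log2 at 13.5 dpc. The 419 higher and 380 lower genes had been chosen on the 2 earliest stages, but later stages also entered that choice, through the intensity filter, the choice of probe set and the estimate of the spread. Their medians by stage are given as a description, in which part of the course follows from how the genes were chosen. The median level of the higher genes was 6.16 and 6.47 log2 at 10.5 dpc, 7.99 and 7.88 log2 at 11.5 dpc, 8.43 and 8.36 log2 at 12.5 dpc, and 8.79 and 8.69 log2 at 16.5 dpc. It was 7.41 and 7.12 log2 in adult liver. The lower genes had medians of 8.10 and 7.76 log2 at 10.5 dpc, 6.22 and 6.48 log2 at 11.5 dpc, 6.6 and 6.72 log2 at 12.5 dpc, and 5.82 and 5.84 log2 at 16.5 dpc.

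The same day was also measured in the rest of the embryo, with 1 array per stage and values of another form, without negative readings. The change in liver minus the change in the rest of the embryo was tested over all 18 arrays, where the single arrays are assumed to vary as the liver groups do. Of 15543 genes tested, 436 changed more upward in liver (2.81%) and 326 more downward (2.10%), together 4.90%. The total of 762 became 425 without replicate 1 of 11.5 dpc liver and 1500 without replicate 2 of 10.5 dpc liver. Of the 419 genes called higher in liver 214 were also called in this difference in the same direction (51.1%), as were 156 of the 380 called lower (41.1%). The liver change is a term of both tests, so this overlap is not independent. In the rest of the embryo the median change of the 419 genes was -0.04 log2 and that of the 380 genes was 0.09 log2.

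The largest upward differences among genes also called in liver were those of Prrg1, Hemgn and Cldn13. Another Prrg1 probe set changed by -0.07 log2 in liver. Hemgn, a nuclear protein of blood progenitors and red cells, read 1705 and 1077 in 11.5 dpc liver, against 411 and 328 in 10.5 dpc liver, while the embryo array without liver gave 104 at 11.5 dpc and 598 at 10.5 dpc. Cldn13, a claudin of mouse erythroid cells, read 417 and 310 in 11.5 dpc liver, against 39.7 and 20.5 in 10.5 dpc liver, and 28.0 at 11.5 dpc and 43.1 at 10.5 dpc in the rest of the embryo. The largest downward differences were those of the muscle genes Tnnt2, Myh7 and Actc1. Tnnt2, reported above for liver, read 2145 at 11.5 dpc and 1821 at 10.5 dpc in the rest of the embryo. Actc1 read 6345 at 11.5 dpc and 5077 at 10.5 dpc there. The fall of these transcripts was thus seen in the liver arrays and not in the array pair of the rest of the embryo.

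**Figure D5:**
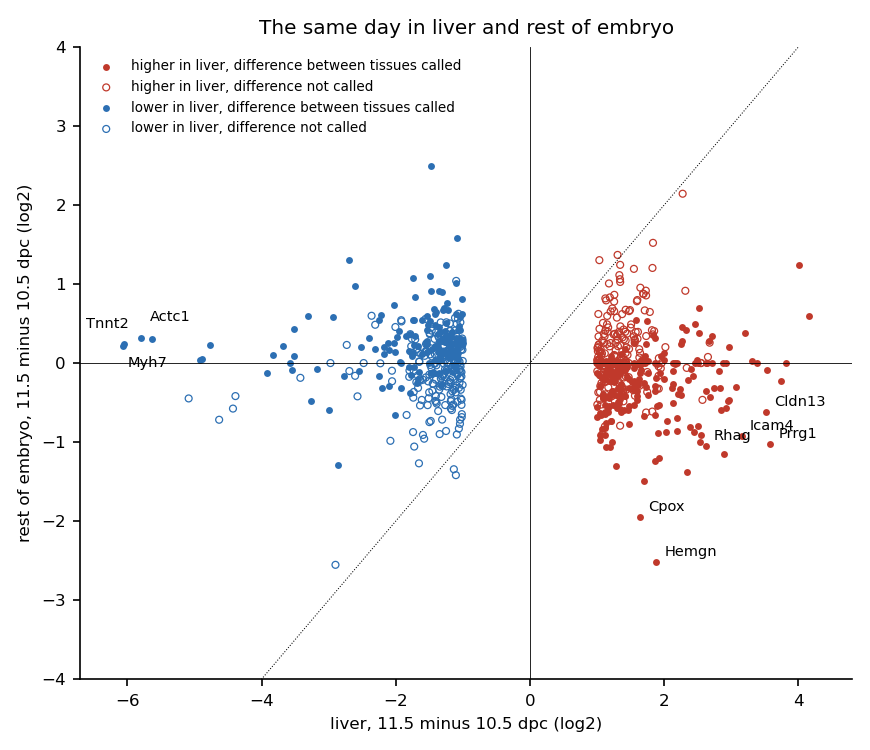
Difference between 11.5 and 10.5 dpc in liver (horizontal axis) and in the rest of the embryo (vertical axis), in log2, for the 419 genes called higher and the 380 called lower in liver. Filled points are the 214 and 156 genes whose change also differed between tissues, and the dotted line marks equal change. Tnnt2, Myh7 and Actc1 lie at the far left with changes between 0.21 and 0.32 log2 in the rest of the embryo.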

How the data were processed

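Biotin-labelled cRNA from Trizol-extracted RNA was hybridised to 18 mouse Affymetrix arrays, 14 of liver and 4 of the rest of the embryo, per the labels' protocols. The authors deposited 1 linear intensity per probe set and array; the sources used here do not say how these intensities were summarised and scaled. Liver columns hold values below 0 and columns of the rest of the embryo do not.

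Of 45101 probe sets, 64 are controls, 34945 have 1 gene symbol, 932 several and 9160 none, and only those with 1 symbol were used. Each of 18193 genes was represented by its probe set of highest mean level. Gapdh, named alone only by control probe sets, has no gene value. Intensities were floored at 24.8, the 20th percentile, and log2 was taken. Genes above 77.95, the 50th percentile, on at least 2 of the 14 liver arrays were kept (14125). The fit used limma 3.58.1 (R 4.3.3), with group means over 14 liver arrays, empirical Bayes with an intensity trend, two-sided, Benjamini-Hochberg adjusted. The spread comes from the 2 arrays of each stage, which the labels call biological replicates without more detail, so p-values measure the spread between pools. The number of arrays limits the precision. A fold against a stage with both arrays at the floor is a bound, measured from the floor. The scripts were tested on simulated data.

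The comparison and the 51 gene lists were chosen with earlier results of these data known. Genes named are the 6 largest called rises and falls, up to 3 called members of each list (or, with none, the member of smallest adjusted p), every called heart muscle gene, 7 fixed genes and the genes with the largest differences between tissues. Of the 6 largest falls 5 are heart muscle genes and the other is Actc1. Promoters came from RefSeq tables on GRCm38.p6. Replicate numbers did not pair the arrays: between stages, deviations of same-numbered arrays correlated at -0.354 to 0.254 over 21 pairs of stages.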

Additional observations from a re-analysis of the deposited data

Results flagged for a closer look

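The change between 11.5 and 10.5 dpc differed between liver and the rest of the embryo for 436 genes upward and 326 downward, tested as an interaction in limma over 18 arrays. Their total of 762 became 425 without replicate 1 of 11.5 dpc liver and 1500 without replicate 2 of 10.5 dpc liver. Among genes also called in liver, the 3 largest upward differences (liver minus rest of embryo) were those of Prrg1, at 4.61 log2 (SE 0.54, adjusted p = 0.00237), Hemgn, at 4.41 log2 (SE 0.33, adjusted p = 0.000199), and Cldn13, at 4.14 log2 (SE 0.37, adjusted p = 0.000492). Prrg1 read 533 and 312 in 11.5 dpc liver, against 46.8 and 21.2 in 10.5 dpc liver, and 31.0 at 11.5 dpc and 63.1 at 10.5 dpc in the rest of the embryo. Its other probe set changed by -0.07 log2 in liver, and the mean over its probe sets by 1.20 log2.

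The 3 largest downward differences were those of the muscle genes Tnnt2, at -6.29 log2 (SE 0.89, adjusted p = 0.0053), Myh7, at -6.27 log2 (SE 1.03, adjusted p = 0.00977), and Actc1, at -6.12 log2 (SE 0.58, adjusted p = 0.000734). Myh7 read 1652 at 11.5 dpc and 1427 at 10.5 dpc in the rest of the embryo. All 6 stood out because liver and the rest of the embryo changed by different amounts over the same day. The rest of the embryo had 1 array per stage.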

How the results depend on the processing

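The count of 419 higher genes ranged between 330 and 446, and that of 380 lower genes between 283 and 387, over other floors, filters, scalings, probe set rules, models and the replicate block (418 and 380 with the block), with 1 exception. With only the 4 arrays of the 2 stages fitted, which leaves few arrays to estimate the spread, 172 genes were called higher and 164 lower. Leaving out 1 array at a time gave 318 to 774 higher and 238 to 1012 lower genes. Both highest counts came without replicate 2 of 10.5 dpc and both lowest without replicate 1 of 11.5 dpc. Called in the full fit and again without either 10.5 dpc array, in an alternative added after seeing the data, were 278 higher and 231 lower genes. The 22 lower heart muscle genes became 18 to 27 when 1 array was left out and 19 to 23 under the other alternatives, 21 with the replicate block. The 762 genes whose change differed between tissues became 425 to 1500 with 1 array left out (at the same arrays), 648 to 891 otherwise and 609 with the replicate block. Of 141 named genes 129 were called, and 104 were also called without either 10.5 dpc array. With only the 4 arrays, 41 of 138 lost their call, without replicate 1 of 11.5 dpc 24 of 141, without replicate 1 of 10.5 dpc 22, without replicate 2 of 11.5 dpc 14, and with the mean over probe sets 19. These 19 were Hnf4a, Lin28a, Ppox, Uros, Mecom, Ptprc, Vcan, Msx2, Fgfr1, Wnt5a, Lef1, Ccnd2, Pdk1, Sec11c, Creb3l2, Ndn, Tbx20, Ttn and Mylk. Desmin (Des) turned to 0.18 log2 with the mean over its probe sets. Prox1 turned to -0.0023 log2 with quantile normalization and -0.075 log2 with the mean over probe sets, and ranged between -0.27 and 0.30 log2 with 1 array left out. The causes were not tested. Values near the floor bound the size of a change, not its direction.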
